A study of Mus musculus with 8 samples.

Results

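The CXC chemokine ligands described here are 8 genes, Cxcl1, Cxcl2, Cxcl3, Cxcl10, Cxcl12, Cxcl14, Cxcl16 and Pf4, chosen by name from a table of 23761 genes. All 8 were in the table, and 6 of them had a mean level of at least 1 FPKM (sequenced fragments, scaled to the length of the transcript and to the size of the library) over the libraries, as did 10920 genes in all. The libraries came from bone marrow-derived macrophages (BMDMs), which were grown for 6 days from the marrow of femur and tibia in medium conditioned by L929 fibroblasts. Total RNA was sequenced from 4 control mice and 4 knockout mice, all 3 months old, and the sample descriptions mark every library as vehicle. Control mice had the genotype LysM Cre/Cre and are called LysM. Knockout mice, called K2KO, had the same Cre at both copies of the lysozyme M gene together with KLF2 flox/flox. Cre in this model is driven by the lysozyme M promoter, so excision is limited to cells of the myeloid lineage that have used that promoter. The comparison asked which CXC ligands differ between macrophages of the 2 genotypes when no inflammatory stimulus is named.

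CXC chemokines are small secreted proteins that attract leukocytes through receptors coupled to inhibitory G proteins. One branch, to which Cxcl1, Cxcl2 and Cxcl3 belong, draws neutrophils through Cxcr2 and is made quickly by macrophages when NF-kB is active. Cxcl10 is an interferon-induced ligand of Cxcr3 that attracts activated T cells, Cxcl12 holds Cxcr4-bearing cells in the marrow, Cxcl16 is a membrane-anchored ligand of Cxcr6, Pf4 is best known as platelet factor 4, and Cxcl14 is made in many tissues and has a less settled receptor.

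The targeted gene was examined first. Klf2, which encodes the transcription factor Kruppel-like factor 2, read 44.1, 52.9, 64.7 and 72.8 FPKM in LysM0, LysM1, LysM2 and LysM3. It read 45.5, 41.6, 59.2 and 59.3 FPKM in K2KO0, K2KO1, K2KO2 and K2KO3. The groups overlapped, with a log2 fold change of -0.18 (SE 0.17, exact two-sided permutation test, p = 0.429). With a correction for GC content and length the fold change was 0.039. The table gives 1 value per gene, so the floxed exons could not be looked at separately, and because Klf2 was not lower beyond the spread in these libraries, directions below are given for the libraries labelled K2KO. Library numbers are those of the table's columns and do not tie a library to a mouse. Summed over all genes, the LysM libraries ran from 497253 (LysM0) to 551608 FPKM (LysM3). The libraries labelled K2KO ran lower, from 448235 (K2KO0) to 501965 FPKM (K2KO3), with a small overlap. The actin gene Actb read 2625 to 2949 FPKM in LysM and 1962 to 2449 FPKM in the libraries labelled K2KO. Every K2KO-labelled library was thus lower for Actb, as for 10.2% of all tested genes. The main fit did not rescale the libraries. FPKM do not give the reads they rest on, but ratios of the smallest values between libraries gave sequencing depths of 0.893 (K2KO2) to 1.32 (K2KO0 and K2KO1) times that of LysM0. LysM3 stood farthest from the other libraries of its genotype, with a root mean square difference of 0.622 on the log2 scale over the tested genes, against 0.418 to 0.515 for the other 7 libraries. Among macrophage markers, Cd68 read 1683 to 1942 FPKM and the M-CSF receptor Csf1r read 480 to 600 FPKM across the 8 libraries, whereas Gapdh, which every cell uses, was listed at 0 to 0.4999 FPKM, so that a value near 0 in this table need not mean low expression.

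Levels of the 8 ligands spanned several orders of magnitude. Pf4 was the most abundant, at a mean of 282 FPKM (SD 85.8, n = 8 libraries), followed by Cxcl16 at 165 (SD 21.7) and Cxcl2 at 33.1 (SD 8.64). Cxcl14 followed at 11.8 (SD 4.15), Cxcl1 at 6.11 (SD 2.55) and Cxcl10 at 4.88 (SD 1.998). Cxcl3, at 0.399 (SD 0.321), and Cxcl12, at 0.0569 (SD 0.0293), were under the filter of 1 FPKM. The ranges of 3 neighbouring pairs overlapped, namely Pf4 with Cxcl16, Cxcl14 with Cxcl1, and Cxcl1 with Cxcl10, although Cxcl14 exceeded Cxcl1 within each of the 8 libraries. Pf4 made up 38.2% to 62.2% of the summed FPKM of the 8 ligands and Cxcl16 27.5% to 45.9%.

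**Figure D1:**
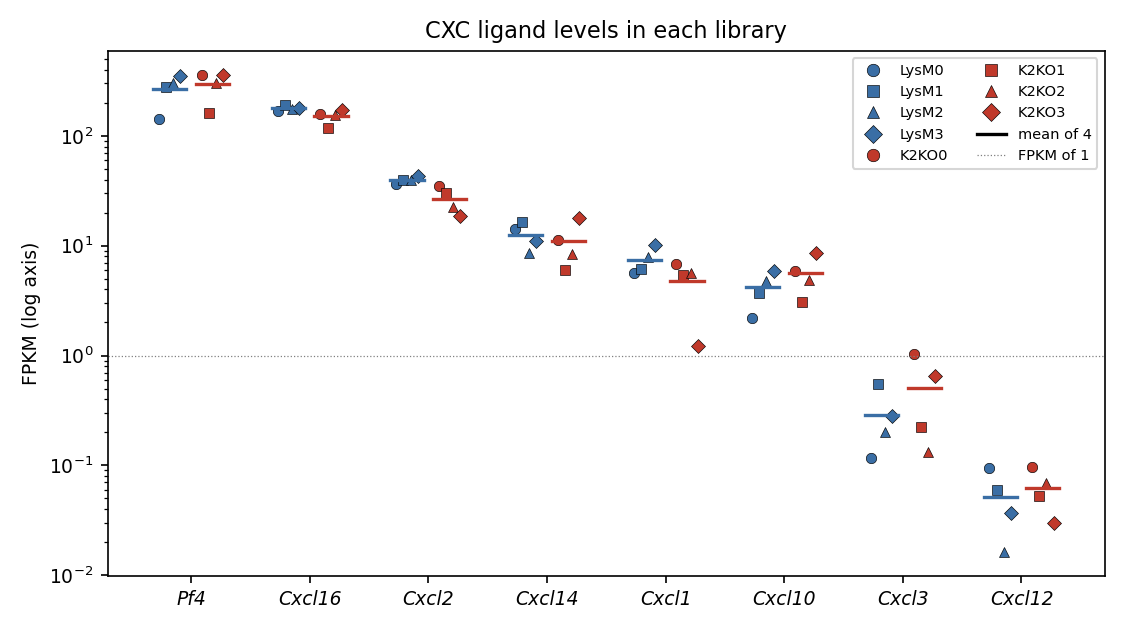
Level of each CXC ligand in FPKM (log axis) in the 4 LysM libraries (blue) and the 4 libraries labelled K2KO (red), with a horizontal line at each group's mean and marker shapes for library numbers 0 to 3. Pf4 and Cxcl16 lie above 100 FPKM in every library, Cxcl2 is the ligand whose groups do not overlap, and K2KO3 is far below the other libraries for Cxcl1.

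The 3 neutrophil-attracting ligands are neighbours on chromosome 5 (GRCm38), with Cxcl3 at 90786103 to 90789600, Cxcl1 at 90891241 to 90893115 and Cxcl2 at 90903871 to 90905938, all on the plus strand in GENCODE M21. Their promoters share a run of 10 bases, and the stretch before the first annotated start of each is shown for that reason. Sequences are from RefSeq on GRCm38.p6, read in the direction of the gene, at chr5:90891131-90891240 for Cxcl1, chr5:90903761-90903870 for Cxcl2 and chr5:90785991-90786100 for Cxcl3. Capitals mark matches to a common form of the NF-kB motif, GGGNN followed directly by TTTCC (N is any base), searched on both strands.
Cxcl1: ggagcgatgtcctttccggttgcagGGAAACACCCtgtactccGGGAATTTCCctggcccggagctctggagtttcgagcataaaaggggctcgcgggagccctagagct
Cxcl2: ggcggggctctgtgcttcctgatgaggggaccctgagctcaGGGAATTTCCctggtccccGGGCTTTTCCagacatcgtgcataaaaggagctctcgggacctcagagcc
Cxcl3: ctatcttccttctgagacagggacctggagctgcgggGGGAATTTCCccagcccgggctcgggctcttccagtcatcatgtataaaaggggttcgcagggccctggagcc
The run GGGAATTTCC stands in all 3. Cxcl1 and Cxcl2 each hold a second match, on the minus strand in Cxcl1. Of 32851 promoter windows of the same length (250 bases before to 50 bases after the start), 1.63% hold such a match, and none of the other 4 members with a window does. Cxcl16 had no entry among the promoters used. A match is a string of letters and does not show binding. Other forms of the NF-kB motif were not searched, so a window without a match may still hold one.

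Cxcl2, also called MIP-2, read 36.4, 39.5, 39.5 and 43.1 FPKM in LysM0 to LysM3. In K2KO0 to K2KO3 it read 34.7, 30.3, 22.7 and 18.6 FPKM. Every library labelled K2KO was under every LysM library, and the K2KO-labelled libraries were more scattered, with a coefficient of variation of 27.4% against 6.94%. Cxcl2 fell by 0.61 on the log2 scale (log2 of FPKM + 0.1, SE 0.17, 95% interval -1.01 to -0.22, limma with Benjamini-Hochberg adjustment, adjusted p = 0.0374), from a mean of 39.6 ± 2.75 to 26.6 ± 7.28 FPKM (SD, n = 4 each). It was the single ligand of the 6 tested to pass an adjusted p of 0.05 with an absolute log2 fold change over 0.26, against 18.4% of all tested genes, 8.61% in its direction. Of all tested genes, 23.1% had groups that did not overlap and 10.2% had every K2KO-labelled library lower, so that 1 ligand of this kind among 6 is near the background. The fold change stayed negative when any library was left out, between -0.76 and -0.46, but the call was lost in limma without LysM1, LysM2, LysM3, K2KO1 or K2KO2 (adjusted p of up to 0.0999). It was also lost in limma after upper-quartile scaling (adjusted p = 0.0531) or quantile normalization (adjusted p = 0.0754), and by ordinary least squares per gene (adjusted p = 0.0985).

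Cxcl1, also called KC, read 5.64, 6.11, 7.87 and 10.2 FPKM in LysM0 to LysM3. The K2KO-labelled libraries read 6.88, 5.38, 5.59 and 1.22 FPKM. K2KO3 was the lowest of all 8 for both Cxcl1 and Cxcl2, and the other K2KO-labelled libraries lay within or just under the LysM range of Cxcl1. The log2 fold change of -0.84 (SE 0.47, 95% interval -1.90 to 0.23) did not pass (adjusted p = 0.221 by limma). Without K2KO3 it was -0.29 (adjusted p = 0.295), so that much of its size rested on this library. Cxcl1 and Cxcl2 varied together, with a Pearson r of 0.85 over the 8 libraries and 0.83 for the deviations from the group means, given as a description of values that share their libraries.

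Cxcl3 was listed at low values. The LysM libraries read 0.117, 0.546, 0.200 and 0.283 FPKM and the K2KO-labelled libraries 1.03, 0.224, 0.132 and 0.658 FPKM. The groups overlapped (log2 fold change 0.50, exact two-sided permutation test, p = 0.429), and at a mean under 1 FPKM the gene was not part of the fit across genes. Its fold change ran from 0.11 (without K2KO0) to 0.87 (without K2KO2), and from 0.20 to 0.60 with a pseudocount of 1 or 0.01. Its transcript matches that of Cxcl2 at 94.6% identity over 239 bases, and Cxcl2 was far more abundant, so fragments from that stretch could have been assigned to either gene.

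The transcripts of these 3 ligands carry repeated ATTTA pentamers in their 3′ untranslated regions, the short AU-rich element through which the decay factor tristetraprolin (Zfp36) and its relatives act on unstable mRNAs. Cxcl2 has 11 in 1494 bases, Cxcl1 has 7 in 592 bases and Cxcl3 has 5 in 645 bases. Cxcl12 has 4 in 5188 bases, Cxcl10 has 3 in 996, Cxcl16 has 2 in 1421, Pf4 has 1 in 123 and Cxcl14 has 0 in 1149. Per kilobase, Pf4 (8.13) lies among the 3 neutrophil-attracting ligands (7.36 to 11.8), so that by density they do not stand apart from it. Across 9693 tested protein-coding genes the median was 1, and 21.7% had 5 or more.

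Pf4 lies in the same cluster, at 90772435 to 90773383 of chromosome 5 on the plus strand. It read 141, 280, 304 and 351 FPKM in LysM0 to LysM3 and 361, 162, 301 and 355 FPKM in K2KO0 to K2KO3. LysM0 and K2KO1 were the low libraries, 1 of each genotype, and the remaining 6 lay between 280 and 361 FPKM. The log2 fold change was 0.14 (SE 0.33, 95% interval -0.59 to 0.87, adjusted p = 0.773 by limma), and it became -0.14 without LysM0. Pf4 is also a product of megakaryocytes. The defining platelet genes Gp6 and Gp1ba were at most 0.0504 and 0.324 FPKM, and Gp9 was at most 0.924 FPKM. Gp9 was under the filter and read 0.281 ± 0.104 FPKM in LysM and 0.753 ± 0.176 FPKM in the K2KO-labelled libraries (SD, n = 4 each). Its 2 groups did not overlap (exact two-sided permutation test, p = 0.0286, the smallest it can give). Among all tested genes, 23.1% had groups without overlap. Of 9 platelet markers 3 passed the filter (Itga2b, Treml1 and Ppbp), with the receptor Treml1 the most abundant at a mean of 5.34 FPKM, and the summed level of all 9 was 9.93 FPKM in LysM and 12.3 FPKM in the K2KO-labelled libraries. Without Ppbp the sums were 7.90 and 7.97 FPKM, with K2KO3 at 11.4 FPKM and the other 7 libraries between 6.54 and 8.06 FPKM.

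Ppbp, the platelet basic protein gene next to Pf4, is a CXC ligand outside the 8 members that was also tested and passed. Its levels were 2.31, 2.74, 1.16 and 1.89 FPKM in LysM0 to LysM3 and 4.33, 4.71, 2.71 and 5.46 FPKM in K2KO0 to K2KO3. Apart from K2KO2, which was just under LysM1, the K2KO-labelled libraries were higher. Ppbp rose by 1.07 on the log2 scale (SE 0.27, adjusted p = 0.0291 by limma), as 9.84% of tested genes rose and passed, whereas an exact two-sided permutation test of the same difference gave p = 0.0571. Among the other platelet genes, Gp9 was also higher, Gp1ba and Itga2b had log2 fold changes of 0.59 and 0.53 without passing (Gp1ba was under the filter), and Treml1 had -0.27, also without passing. The part of platelet-lineage cells in the Ppbp value was not tested. The call held in 9 of 12 alternative analyses of all libraries and in 4 of 8 with a library left out. Pf4, 2.37 kb away, had a log2 fold change of 0.14. The other ligands had means under 1 FPKM. Cxcl5, at the end of the cluster, read at most 0.0997 FPKM in LysM and 0.302 FPKM in the K2KO-labelled libraries. Cxcl11 was listed at 0 in all libraries but K2KO0 (0.0823 FPKM) and K2KO3 (0.1401 FPKM), and Cxcl13 was listed at 0 throughout. Cxcl15 and Cxcl17 were looked for but not found under these names, and so were not analysed here.

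**Figure D2:**
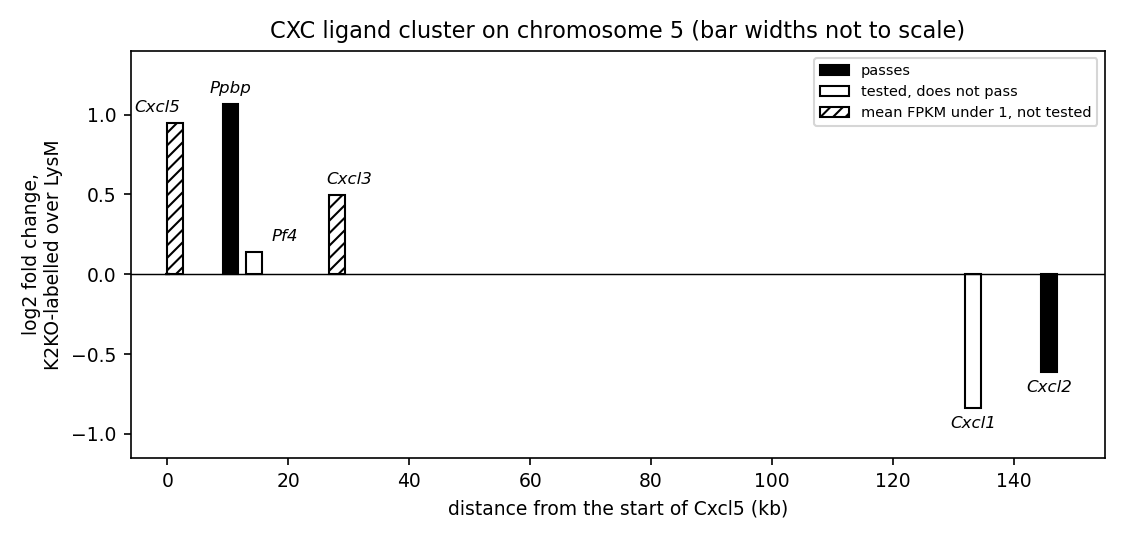
Log2 fold change (libraries labelled K2KO over LysM) of 6 CXC ligands in the chromosome 5 cluster (Cxcl15 was not analysed here), against distance in kb from the start of Cxcl5. Filled bars passed, open bars were tested and did not pass, and hatched bars have a mean under 1 FPKM. Ppbp (1.07) and Cxcl2 (-0.61) passed in opposite directions, with starts 135 kb apart.

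Cxcl10, also called IP-10, lies outside this cluster at 92346638 to 92348889 of chromosome 5 on the minus strand. It read 2.22, 3.74, 4.76 and 5.94 FPKM in LysM0 to LysM3 and 5.85, 3.05, 4.83 and 8.64 FPKM in K2KO0 to K2KO3. The groups overlapped, with LysM0 lowest and K2KO3 highest. The log2 fold change was 0.41 (SE 0.35, 95% interval -0.37 to 1.19, adjusted p = 0.411 by limma), and it ranged from 0.14 to 0.66 as each library was left out. Cxcl9, the ligand of the same receptor, stood at 1.52 FPKM in K2KO3 and at no more than 0.215 FPKM elsewhere. The stretch before the start of Cxcl10 (chr5:92348890-92349112, RefSeq, GRCm38.p6, minus strand, read in the direction of the gene) is shown for its match, in capitals, to a form of the interferon-stimulated response element, GAAANN followed directly by GAAA.
Cxcl10: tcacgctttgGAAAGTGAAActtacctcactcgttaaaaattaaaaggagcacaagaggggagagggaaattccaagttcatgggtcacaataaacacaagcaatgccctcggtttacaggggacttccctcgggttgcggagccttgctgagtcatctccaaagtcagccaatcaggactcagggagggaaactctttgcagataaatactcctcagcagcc
That motif is in 3.44% of the promoter windows, on either strand. Among the 7 members with a window, Cxcl14 also holds a match. Of 3 further motifs, the AP-1 form TGANTCA was found in Cxcl10 (7.81% of all windows) and TATAAA in Cxcl3 (13.6%). CCACACCC, a form of the CACCC box that Kruppel-like factors bind, was in none of the 7 (3.56%). That says only that these letters are not in these windows, and other forms of the box were not searched. Cxcl10 overlaps Art3 on the other strand, which read at most 0.0496 FPKM.

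The genes most like Cxcl10 over the 8 libraries, by Pearson r of log2(FPKM + 0.1), were the long non-coding RNA AW112010 (0.98), Irgm2 (0.97) and Tap1 (0.97), and none of the 3 passed the test between genotypes (adjusted p of 0.389, 0.604 and 0.622 by limma). Among the members, Cxcl10 was most like Pf4, with an r of 0.91, and 0.93 for deviations from the group means. The genes most like Pf4 were Egln3 (0.98), Oasl1 (0.98) and Pecam1 (0.98). These r values describe 8 libraries and were picked as the highest of all tested genes. Of 20 tested interferon-response genes 0 passed by limma, 2 had an unadjusted p under 0.05, and 0 passed by ordinary least squares, against 18.4% of all tested genes by limma and 746 of 10920 by ordinary least squares. Their median log2 fold change was -0.04, against 0.01 for all tested genes. Irf7, the regulator that amplifies type I interferon, was the most abundant, at 189 FPKM in LysM and 174 FPKM in the K2KO-labelled libraries (adjusted p = 0.778).

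Cxcl16 lies at 70453983 to 70459984 of chromosome 11 on the minus strand. It read 170, 189, 177 and 180 FPKM in LysM0 to LysM3 and 160, 118, 155.4 and 170 FPKM in K2KO0 to K2KO3. K2KO1 was the lowest by a wide margin, and only K2KO3, at 170.4 FPKM against 169.8 FPKM in LysM0, reached into the LysM range. The log2 fold change was -0.26 (SE 0.11, 95% interval -0.50 to -0.01), which did not pass (adjusted p = 0.117 by limma, exact two-sided permutation p = 0.0571). Without K2KO1 it was -0.14, and after quantile normalization it was -0.11. Cxcl16 overlaps Zmynd15 on the other strand, which read 5.94 to 11.3 FPKM, and as the use of strand in counting is not given in the sources used here, the Cxcl16 signal from the shared stretch is uncertain. Its receptor Cxcr6 read 0.06001 to 0.305 FPKM.

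Cxcl14 lies at 56288643 to 56296551 of chromosome 13 on the minus strand. It read 14.3, 16.3, 8.62 and 11.1 FPKM in LysM0 to LysM3 and 11.4, 5.97, 8.41 and 18.0 FPKM in K2KO0 to K2KO3. The lowest and the highest of the 8 were both labelled K2KO. The log2 fold change was -0.28 (SE 0.32, 95% interval -0.99 to 0.44, adjusted p = 0.545 by limma). It was -0.03 without K2KO1, -0.55 without K2KO3 and -0.15 with a correction for GC content and length.

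Cxcl12, also called SDF-1, lies at 117168535 to 117181367 of chromosome 6 on the plus strand. It read 0.0945, 0.0591, 0.0163 and 0.0366 FPKM in LysM0 to LysM3 and 0.0976, 0.0529, 0.0685 and 0.0299 FPKM in K2KO0 to K2KO3. The groups overlapped (log2 fold change 0.11, exact two-sided permutation test, p = 0.629). The fold change was -0.012 without LysM2, and 0.015 or 0.31 with a pseudocount of 1 or 0.01. Cxcl12 in marrow comes chiefly from stromal cells. Of 10 stromal markers 1, Kitl, passed the filter. The summed stromal level was 2.64 FPKM in LysM and 5.59 FPKM in the K2KO-labelled libraries. Kitl alone made up 1.99 and 3.78 FPKM of these sums. Kitl, which encodes stem cell factor, was the most abundant and rose by 0.89 on the log2 scale (SE 0.14, adjusted p = 0.00834 by limma), and the collagen gene Col1a1 read at most 0.138 FPKM in LysM and 0.623 FPKM in the K2KO-labelled libraries. In bulk RNA, a change in the number of cells of a type and a change in RNA per cell cannot be told apart.

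**Figure D3:**
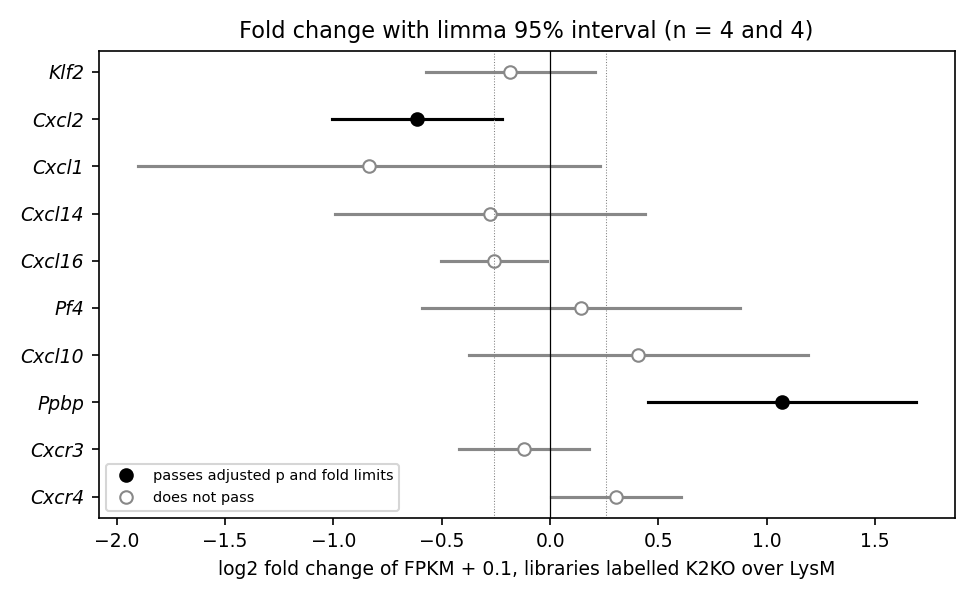
Log2 fold change of FPKM + 0.1 (libraries labelled K2KO over LysM) with its 95% interval from limma, for Klf2, the 6 tested ligands, Ppbp and the 2 tested CXC receptors. Dotted lines stand at -0.26 and 0.26, filled points passed, and Cxcl2 (-0.61) and Ppbp (1.07) are the filled ones.

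**Figure D4:**
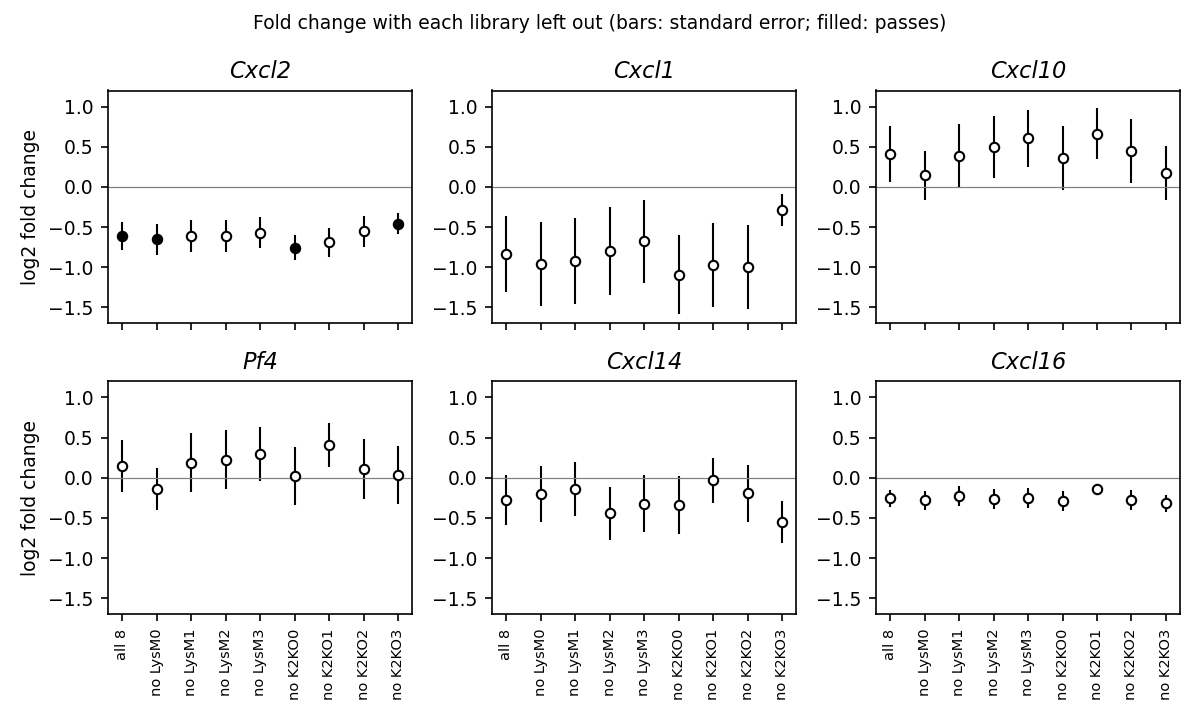
Log2 fold change of the 6 tested ligands (points, with the standard error as a bar) with all 8 libraries and with each library left out, on the same vertical scale. Filled points passed. Cxcl2 stays between -0.76 and -0.46, Cxcl1 shrinks to -0.29 without K2KO3, and Pf4 changes sign without LysM0.

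The median log2 fold change of the 6 tested ligands was -0.27, against 0.01 for all tested genes, of which 1074 rose and 940 fell (1335 and 748 after upper-quartile scaling, and 485 and 613 with the GC and length correction). By mean level, 4 of the 8 members were higher in the K2KO-labelled libraries and 4 were lower. Among the genes most like the remaining members, Wfikkn1 (r = 0.97) and Pilra (0.95) followed Cxcl2 and themselves fell, by 1.06 and 1.02 on the log2 scale (adjusted p of 0.0184 and 0.0109 by limma), whereas Fam78a (0.95) did not pass. Cxcl1 was followed by Slc16a13 (0.98), Slc46a3 (0.96) and Gm28417 (0.96). Cxcl14 was followed by Pald1 (0.98), Msrb1 (0.97) and Cebpa (0.97), and Cxcl16 by Cbx6 (0.99), Tmem86a (0.98) and Gm9790 (0.97). None of these 9 companions of Cxcl1, Cxcl14 and Cxcl16 passed. All companions were picked by r over the 8 libraries, which includes the genotype difference. Whether they passed is therefore not independent of the ligand they follow.

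Of the 10 listed CXC and atypical chemokine receptors, 2 passed the filter. Cxcr4, the receptor of Cxcl12, was the abundant one and read 211, 240, 167 and 185 FPKM in LysM0 to LysM3 and 242, 202, 271 and 273 FPKM in K2KO0 to K2KO3. The K2KO-labelled mean was higher but the groups overlapped (log2 fold change 0.30, SE 0.13, adjusted p = 0.126 by limma). After quantile normalization, alone among the 12 alternatives of all libraries, Cxcr4 passed (log2 fold change 0.48, adjusted p = 0.0331 by limma). Cxcr3 read 2.11 to 3.20 FPKM in LysM and 2.17 to 2.41 FPKM in the K2KO-labelled libraries (adjusted p = 0.526). By limma 0 of the 2 passed, with 1 at an unadjusted p under 0.05, and 0 passed by ordinary least squares, where 18.4% of all tested genes passed by limma and 746 of 10920 by ordinary least squares. Cxcr2, which binds Cxcl1, Cxcl2 and Cxcl3, read 0.122 to 0.3002 FPKM, and Cxcr1 at most 0.123 FPKM. Cxcr5 and the atypical receptors Ackr1, Ackr2, Ackr3 and Ackr4 were all at or under 0.116 FPKM.

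Of 25 tested genes that act downstream of these receptors, 6 fell and 2 rose, against 18.4% of all tested genes in either direction, with a median log2 fold change of -0.05. The arrestin Arrb2, which uncouples receptors from G proteins, fell from a mean of 306 to 219 FPKM (log2 fold change -0.48, SE 0.09, adjusted p = 0.0141 by limma). Adrbk1, the receptor kinase GRK2, fell by 0.32 and the G protein subunits Gnb2 and Gnai2 by 0.33 and 0.27 on the log2 scale, Gnai2 being the most abundant of the list at a mean of 514 FPKM. The regulators of G protein signalling Rgs19 and Rgs14 fell by 0.48 and 0.30, whereas Rgs18 rose by 0.62 and Gnai3 by 0.35. The Gnai2 value lies just past the fold limit of 0.26, and its call held in 6 of 12 alternative analyses and in 2 of 8 with a library left out. The calls held in 7 and 3 for Gnai3, in 8 and 7 for Gnb2, in 10 and 6 for Adrbk1 and Rgs18, in 8 and 8 for Rgs14, in 9 and 8 for Rgs19 and in 11 and 8 for Arrb2. With the GC and length correction Gnb2 and Gnai2 were at -0.14 and Gnai3 at 0.20, and none of the 3 passed. After quantile normalization Gnb2 was at -0.15, Adrbk1 at -0.17 and Gnai2 at -0.08, also without passing.

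Among 14 tested genes that process or bind chemokines, 2 rose and 1 fell, near the 18.4% of all tested genes that passed, with a median log2 fold change of 0.14. The cysteine protease Ctsl rose by 0.30 and the hyaluronan receptor Cd44 by 0.28 on the log2 scale, and the heparan sulfate carrier Sdc3, a syndecan, fell by 0.37 (adjusted p of 0.0399, 0.0159 and 0.0403 by limma). The call on Ctsl held in 6 of 12 alternatives and in 1 of 8 with a library left out (log2 fold change 0.12 to 0.58 over the 12), that on Sdc3 in 3 and 2, and that on Cd44 in 9 and 6, and by ordinary least squares Cd44 alone passed. Over the 12 alternatives the log2 fold change ran from 0.11 to 0.36 for Cd44 and from -0.37 to -0.20 for Sdc3. Ctss was the most abundant, at a mean of 6336 FPKM. Neither Adam10 nor Adam17, the proteases that release Cxcl16 from the membrane, passed both limits. Adam10 passed the limit on adjusted p alone (log2 fold change 0.22, adjusted p = 0.0415 by limma). Adam17 passed neither (log2 fold change 0.10, adjusted p = 0.356 by limma).

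Of 20 tested NF-kB and mRNA decay genes, 3 fell and 1 rose, near the 18.4% of all tested genes that passed, with a median log2 fold change of -0.04. Zfp36, the decay factor named above, fell from 478 to 360 FPKM (log2 fold change -0.42, SE 0.11, adjusted p = 0.0292 by limma) and was the most abundant of the list. Nfkbiz, an atypical IkB protein that takes part in secondary-response transcription, fell by 0.40, and the transcription factor Cebpd fell by 0.59. Tnfaip3, the ubiquitin-editing inhibitor A20, rose by 0.35. None of these 4 passed by ordinary least squares, and with a library left out the calls held in 3 (Zfp36, Tnfaip3) or 4 (Nfkbiz, Cebpd) of 8. Over the 12 alternatives they held in 5 for Zfp36 (log2 fold change nearest to 0, -0.23), in 7 for Tnfaip3 (nearest to 0, 0.21), in 6 for Nfkbiz and in 8 for Cebpd.

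The early cytokines that macrophages make with Cxcl1 and Cxcl2 after LPS gave 5 lower and 0 higher of 9 tested genes, against 8.61% and 9.84% of all tested genes, with a median log2 fold change of -0.65. The 5 were Ccl2, Ccl3, Ccl4 and Ccl7, which attract monocytes, and the anti-inflammatory cytokine Il10. Ccl4, the most abundant, fell from 164 to 101 FPKM (log2 fold change -0.70, SE 0.09, adjusted p = 0.00491 by limma), and Ccl2 fell by 0.96. Ccl5, Tnf and Ptgs2 had higher means in the K2KO-labelled libraries without passing, at log2 fold changes of 0.75, 0.44 and 0.48. With the genes under the filter, 7 of the 14 listed had a higher mean in the K2KO-labelled libraries. Csf1, under the filter, read 0.469 FPKM in LysM and 0.865 FPKM in the K2KO-labelled libraries. Its groups did not overlap (exact two-sided permutation test, p = 0.0286, the smallest it can give). Groups did not overlap for 23.1% of all tested genes, and that share was not computed for genes under the filter. By ordinary least squares 1 of the 9 passed, Ccl4. With a library left out the calls held in 8 of 8 for Ccl4, in 7 for Ccl3, in 2 for Ccl2 and Ccl7 and in 1 for Il10. The direction of this list was known from earlier results on these libraries and is not independent of them.

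**Figure D5:**
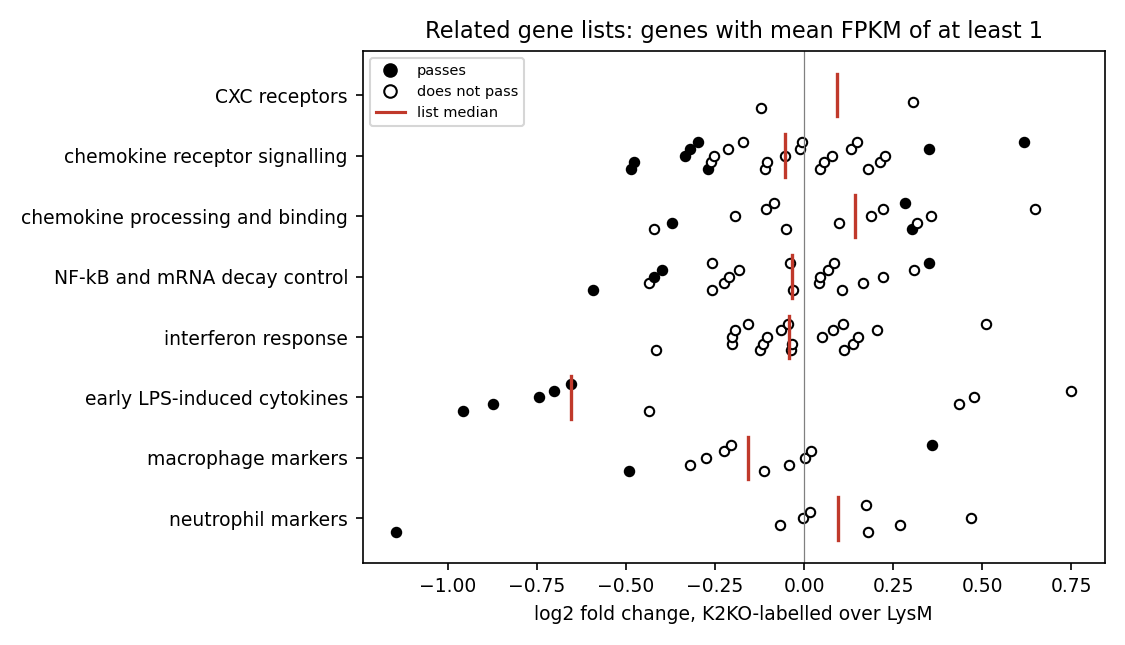
Log2 fold change (libraries labelled K2KO over LysM) of every gene with a mean of at least 1 FPKM in 8 related gene lists, 1 point per gene, spread vertically for legibility. Filled points passed and red bars are list medians. The 5 filled cytokine genes all lie below 0, and the interferon list has no filled point.

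Markers of other cells that marrow cultures can hold were set beside these values, and the counts that passed are to be read against the 18.4% of all tested genes. Of 10 macrophage markers, Mertk rose by 0.36 and Lyz2 fell by 0.49 on the log2 scale, Lyz2 being the gene that carries Cre in all mice. Cd68 was the most abundant at a mean of 1807 FPKM. Of 8 tested neutrophil markers, the antimicrobial peptide gene Camp fell by 1.14 and the other 7 did not pass, with S100a9 the most abundant at 129 FPKM and summed levels of 275 FPKM in LysM and 279 FPKM in the K2KO-labelled libraries. Lymphocyte, dendritic cell and endothelial markers summed to 3.06, 2.04 and 6.17 FPKM in LysM and to 6.82, 3.59 and 7.06 FPKM in the K2KO-labelled libraries. Without Cd4 the lymphocyte sums were 1.14 ± 0.826 and 1.67 ± 0.692 FPKM (SD, n = 4 each). With a library left out the call on Camp held in 5 of 8, that on Lyz2 in 4 and that on Mertk in 2. Of these last lists Cd4 passed, rising by 1.38, while Cd3e was at most 0.212 FPKM. The part of these cells in the ligand values was not tested, nor was that of stromal cells in Cxcl12.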

How the data were processed

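One library per mouse was made from BMDM RNA of 4 LysM and 4 K2KO mice. The authors deposited 1 table of FPKM with a column per library. The study's methods name TopHat2 as the aligner and the submitters' processing notes name STAR, with Cufflinks, Cuffdiff and mm10; versions are not given in the sources used here. All 8 columns were assigned to a genotype by name.

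FPKM were compared as log2(FPKM + 0.1) for the 10920 genes with a mean of at least 1 FPKM, by limma 3.58.1 (lmFit, then eBayes with a mean-variance trend; R 4.3.3), with Benjamini-Hochberg adjustment over all of them and no covariate. A gene passed where the adjusted p was under 0.05 and the log2 fold change exceeded 0.26 in size. Klf2 and ligands under 1 FPKM were compared by exact two-sided permutation of the 8 libraries over 70 assignments, where the smallest p is 0.0286. P-values measure the spread between these mice and libraries. The fit was checked on simulated data.

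Named genes are the 8 ligands, Klf2, the other CXC ligands and receptors, the genes of each related list that passed (up to 8) with its most abundant gene, and for each tested ligand the 3 genes with the highest Pearson r. Others (Gapdh, Actb, Art3, Zmynd15, Adam10, Adam17, Ccl5, Tnf, Ptgs2, Csf1, single cell markers and list genes in which 1 library stood apart) were picked with their values in view. The members and the 14 lists were chosen with earlier results of these data known. Positions, transcripts and 3′ untranslated regions are from GENCODE M21 (23645 identifiers matched) and promoters from RefSeq (7 of 8 ligands matched). Transcripts were compared with blastn 2.17.0, and apart from the Zmynd15 overlap no ligand matched another gene at 95% identity over 200 bases.

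The alternatives were a pseudocount of 1 or 0.01, a filter at 0.1 FPKM or none, quantile or upper-quartile scaling, no mean-variance trend, ordinary least squares, an absolute log2 fold change over 1, a block on the library number, a loess correction for GC content and length (span 0.3), both together, and each library left out.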

Additional observations from a re-analysis of the deposited data

Results flagged for a closer look

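Klf2, the 8 ligands and all genes of the related and marker lists were checked for single libraries that stood apart from the other 3 of their genotype (Dixon's test at the 95% level). Of 349 groups of 4 values, 32 stood apart, where chance alone gives about 17.45, and no value of Klf2 or of the 8 ligands was among them. Cxcl9 did so in both genotypes, at 0.215 FPKM in LysM3 (0.0173 to 0.0464 FPKM in the other 3) and at 1.52 FPKM in K2KO3 (0 to 0.0991 FPKM in the other 3). Atypical receptors did so near 0, with Ackr1 at 0.116 FPKM in LysM1 and 0.0409 FPKM in K2KO1, Ackr2 at 0.0215 FPKM in K2KO2, Ackr3 at 0.0906 FPKM in LysM1, and Ackr4 at 0.0222 FPKM in LysM0 and 0.0168 FPKM in K2KO0.

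Several interferon-response genes were low in K2KO1, which was also the lowest K2KO-labelled library for Cxcl10 and Pf4. Isg15 read 49.3 FPKM there (116 to 129 FPKM in the other 3), Oasl2 read 79.8 FPKM (137 to 144 FPKM), Usp18 read 20.5 FPKM (39.7 to 40.9 FPKM) and Irf9 read 26.3 FPKM (33.3 to 34.3 FPKM). LysM0, the lowest LysM library for Cxcl10 and Pf4, was also the lowest of its genotype for Isg15 (74.2 FPKM), Oasl2 (85.1 FPKM) and Usp18 (24.9 FPKM), without standing apart by the same test. Gbp2 was high in K2KO3, which was the highest for Cxcl10, at 18.2 FPKM (3.33 to 5.70 FPKM in the other 3).

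Among the other list genes, Grk6 read 12.2 FPKM in LysM1, Mmp8 5.17 FPKM in K2KO1, Srgn 86.4 FPKM and Rela 78.8 FPKM in K2KO3, Zfp36l2 82.7 FPKM in LysM3 and Rc3h1 4.99 FPKM in LysM2. Among markers, Csf1r read 547 FPKM in LysM3 and Treml1 6.67 FPKM in K2KO3. Tubb1 read 0.203 FPKM in LysM2 and 0.1397 FPKM in K2KO3. Pecam1 read 1.02 FPKM and Ccr7 0.302 FPKM in LysM0. The rest were under 0.3 FPKM. Col3a1 read 0.151 FPKM in LysM1, Ms4a1 0.2696 FPKM in K2KO1 and Cd8a 0.0788 FPKM in K2KO3. Pdgfra read 0.0158 FPKM in LysM3. In LysM2, Lum read 0.04005 FPKM, Emcn 0.0333 FPKM and Tek 0.0105 FPKM.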

How the results depend on the processing

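The count of ligands that passed was 1 (Cxcl2) and became 0 with no filter, quantile normalization, upper-quartile scaling, no mean-variance trend, ordinary least squares, an absolute log2 fold change over 1, the replicate block (adjusted p of Cxcl2 0.0612 by limma) and the replicate block with the GC and length correction. It ranged from 0 to 1 as each library was left out. Cxcl2 passed in 4 of 12 alternatives of all 8 libraries and kept a negative fold change in all 12. The 2014 genes that passed in all became 1090 with no filter, 746 by ordinary least squares, 110 at an absolute log2 fold change over 1, 1098 with the GC and length correction and 868 with that correction and the replicate block. With a library left out the count ranged from 543 (without LysM3) to 2863 (without K2KO3). It was 753 without LysM1, 1111 without LysM2, 819 without K2KO0, 823 without K2KO1 and 670 without K2KO2. The fold change of Klf2 became 0.039 with the GC and length correction, with and without the replicate block. That of Pf4 ranged from -0.14 to 0.41 and that of Cxcl12 from -0.012 to 0.24 with a library left out. Cxcl12 ran from 0.015 to 0.31 with a pseudocount of 1 or 0.01. The causes were not tested.

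Deviations from the group means gave correlations of -0.07, 0.02, 0.07 and -0.06 between same-numbered libraries. Libraries of different numbers gave -0.14 to 0.18. Such values over all tested genes cannot settle whether the numbers pair the mice. With the replicate block 2057 genes passed. The depth behind single values is unknown, which limits what can be said of ligands and receptors under 1 FPKM.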
